A study of Mus musculus with 18 samples.

Results

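The 10 genes described here, Egr1, Egr2, Egr3, Fos, Fosb, Fosl1, Fosl2, Jun, Junb and Atf3, are immediate early transcription factor genes, and they were followed through C2C12 cells that had all been stretched. They were taken by name, 10 of the 47311 genes in the deposited tables, and all 10 passed the filter on low counts in every fit. C2C12 is a mouse muscle line that grows as mononuclear myoblasts and fuses into myotubes on differentiation. The undifferentiated cells are called myoblasts here and the differentiated cells myotubes. Cells of each stage carried a control siRNA (si-Ctrl), the first siRNA against Setd2 (si-Setd2#1, siRNA 1) or the second (si-Setd2#2, siRNA 2). Setd2 encodes the methyltransferase that places trimethylation on lysine 36 of histone H3 along transcribed genes. There were 3 libraries in each of the 6 groups and 18 in all. RNA was taken directly after the stretch in every group, the controls included. No unstretched cells were used here, so no value below measures an induction by stretch, and the sources used here give neither the length nor the force of the stretch.

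Immediate early genes are switched on within minutes of a stimulus without new protein synthesis, because the factors that act on them, among them serum response factor with its ternary complex partners at CArG boxes and CREB at cyclic AMP response elements, are already present and are activated by kinases such as ERK, JNK and p38. Their mRNAs are short-lived, and many carry AU-rich elements that recruit decay factors. Fos, Fosb, Fosl1 and Fosl2 proteins pair with Jun proteins to form AP-1, Atf3 is a stress-induced factor of the same basic leucine zipper class, and the Egr proteins are zinc finger factors that bind GC-rich sites. In muscle, mechanical load is known to raise several of them.

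Most of the genes are short and have few exons. In the GENCODE M21 annotation of mm10, Fos (chr12:85473890-85477273, plus strand) spans 3384 bases, and Fosb (chr7:19302696-19310051, minus strand) spans 7356. Egr1 (chr18:34859823-34864984, plus strand) spans 5162 bases, Egr2 (chr10:67535475-67542188, plus strand) 6714 and Egr3 (chr14:70077203-70082614, plus strand) 5412. Jun (chr4:95049034-95052222, minus strand) spans 3189 bases with a single exon, and Junb (chr8:84974484-84978718, minus strand) 4235. Fosl1 (chr19:5447547-5455946, plus strand) spans 8400 bases. The longer members are Fosl2 (chr5:32135801-32157842, plus strand) at 22042 bases and Atf3 (chr1:191170296-191218039, minus strand) at 47744. The main transcript of each member has 1 to 4 exons, whereas 23.4% of the 13740 protein-coding genes tested have 4 or fewer, with a median of 9 exons and a median gene length of 23961 bases.

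Depth was 43.5 to 66.6 megareads of estimated counts per library. Setd2 itself was at 97.7 to 118 CPM in control myoblasts against 34.4 to 45 with siRNA, and at 101 to 108 CPM in control myotubes against 34.4 to 58.8 with siRNA. CPM here is counts per megaread after TMM scaling over all 18 libraries. The 11 myotube markers examined summed to 36.5 to 149 CPM in myoblast libraries and to 17243 to 21600 CPM in myotube libraries, which matches the stage labels. The 7 markers listed for myoblasts did not separate the stages in that direction: they summed to 1747 to 2668 CPM in myoblast and to 6201 to 6855 CPM in myotube libraries. Des (831 and 3349 CPM, control means), Itga7 (487 and 1787) and Ncam1 (122 and 692) carried the difference, while Pax7 (38.7 and 27.6) and Myf5 (27.9 and 22.9) were lower in myotubes. Of the 7 fibroblast markers, 4 were at 1 CPM or more in each group, led by Col3a1, while Tcf21 was at 0 throughout. Macrophage markers summed to at most 2.19 CPM with Adgre1 at 0, and endothelial markers to at most 2.67 CPM. Library names begin with C14 or D2 in myoblasts and C13 or D1 in myotubes, and what the prefixes stand for is unknown here. Both prefixes occur in each group, but unevenly. In myoblasts siRNA 1 has 2 C14 libraries and 1 D2, whereas control and siRNA 2 each have 1 C14 and 2 D2. In myotubes the controls have 2 C13 libraries and 1 D1, whereas each siRNA has 1 C13 and 2 D1. Fits without a further term do not adjust for this. The table column of the third siRNA 2 myoblast library reads SETD3 where its label reads SETD2. The third control of the myotubes, control replicate 3 below, is named NT_2, the other controls NT_1.

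Promoter windows of the RefSeq table (GRCm38.p6) run from 250 bases before a start to 50 after it. They matched 8 of the 10 members, Egr3 and Fosl1 having no entry, and the window of Egr1 was not searched. The windows of Egr2, Fos, Fosb, Junb and Atf3 held TGACG, the core of the cyclic AMP response element, on either strand, as did 20.8% of 32851 promoter windows of that length. It was found in neither of the Fosl2 and Jun windows. The RefSeq start of Fosl2 lies 671 bases downstream of the start of its main transcript. The Fosl2 window therefore lies inside the gene and cannot show whether the promoter of that transcript holds any motif searched here. A CArG box was found in the Egr2 window alone of the 7 searched, and in 1.63% of all windows. The full palindrome TGACGTCA (1.79% of all windows) and the AP-1 site TGANTCA (7.81%) matched none of the 7. A match is a description of letters and not of a bound site. Sites outside these windows, or spelled otherwise, were not searched. A window without a match therefore does not show that a gene lacks such an element. The 150 bases before the start are printed 5′ to 3′ for Egr2, Fos and Junb, because these are the members whose mRNA was higher with siRNA 2 than with siRNA 1 in myotubes, as given below. Capitals mark TGACG or its reverse complement and, in Egr2, the CArG box.
Egr2 (chr10:67537719-67537868, plus strand): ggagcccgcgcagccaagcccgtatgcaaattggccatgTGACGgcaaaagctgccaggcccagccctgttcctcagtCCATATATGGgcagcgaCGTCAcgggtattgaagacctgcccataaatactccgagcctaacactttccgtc
Fos (chr12:85473740-85473889, plus strand): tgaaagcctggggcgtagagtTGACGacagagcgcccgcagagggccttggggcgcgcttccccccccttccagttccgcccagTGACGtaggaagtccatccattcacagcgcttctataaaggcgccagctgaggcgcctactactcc
Junb (chr8:84978749-84978898, minus strand): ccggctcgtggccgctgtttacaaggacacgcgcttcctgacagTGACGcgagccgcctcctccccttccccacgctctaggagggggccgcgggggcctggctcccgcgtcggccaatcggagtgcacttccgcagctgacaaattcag
Counting back from the start, the TGACG cores of Egr2 begin at -111 and -55 and flank its CArG box at -72. Those of Fos begin at -129 and -66, and that of Junb at -106. The RefSeq start of Junb lies 30 bases upstream of that of Junb-201.

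The AU-rich nonamer TTATTTATT, bound by decay factors of the tristetraprolin family, occurs in the main transcripts of Fos and Fosl2, and in 7.74% of the main transcripts of 13237 protein-coding genes tested. The 30 bases around it are shown because these are the only members with a match. They were read from the annotation's transcript sequences, with the nonamer in capitals.
Fos-201, bases 1938 to 1967 of 2108: tgttttcaatTTATTTATTaagatggattc
Fosl2-201, bases 5566 to 5595 of 6537: atttattttaTTATTTATTttaaatgttta
The shorter pentamer ATTTA was densest in Fos at 1.9 per kilobase, followed by Atf3 at 1.51, Jun at 1.25, Fosl2 at 1.22 and Junb at 1.11. Egr2 was at 1.01, Egr1 at 0.988, Fosb at 0.793 and Fosl1 at 0.536. Over all these genes the median was 0.763 and the upper quartile 1.45, which only Fos and Atf3 exceeded. Egr3 had none, but the tables list only 1 of its 4 annotated transcripts, Egr3-201, which ends at position 70079955, while transcripts reaching 70082614 are not listed. Reads from that downstream stretch may therefore be missing from the Egr3 values.

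The level of each gene was compared with the others per length, as TPM. In control myoblasts the most abundant were Fosl1 (127 ± 14.1 TPM, SD, n = 3), Jun (118 ± 7.23) and Junb (113 ± 11.8), whose ranges overlapped. Fosl2 (42.9 ± 0.894 TPM) and Egr1 (38.4 ± 8.96) overlapped below them, then Atf3 (20.7 ± 2.8) and Egr3 (20.6 ± 3.75). Egr2 followed at 4.21 ± 0.958 TPM, and Fos (1.87 ± 0.0739) and Fosb (1.41 ± 0.5) were lowest, with overlapping ranges. Fos, the founding member of the family, was thus among the scarcest of the 10 in these stretched myoblasts. Its TPM also rests on a split of few reads, with 8.77% of its counts assigned to a short processed transcript, Fos-202, in this group.

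The order differed in control myotubes. Junb led at 233 ± 16.5 TPM (SD, n = 3), followed by Jun at 122 ± 4.9. Egr3 (80 ± 9.65 TPM) and Egr1 (69.5 ± 8.79) came next with overlapping ranges, then Fosl2 at 48.8 ± 0.554 and Egr2 at 11.9 ± 1.07. Fosl1 (9.18 ± 1.64 TPM) overlapped with Atf3 (8.19 ± 1.04), and Atf3 in turn with Fos (6.37 ± 1.11). Fosb was again lowest, at 1.2 ± 0.146 TPM.

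**Figure D1:**
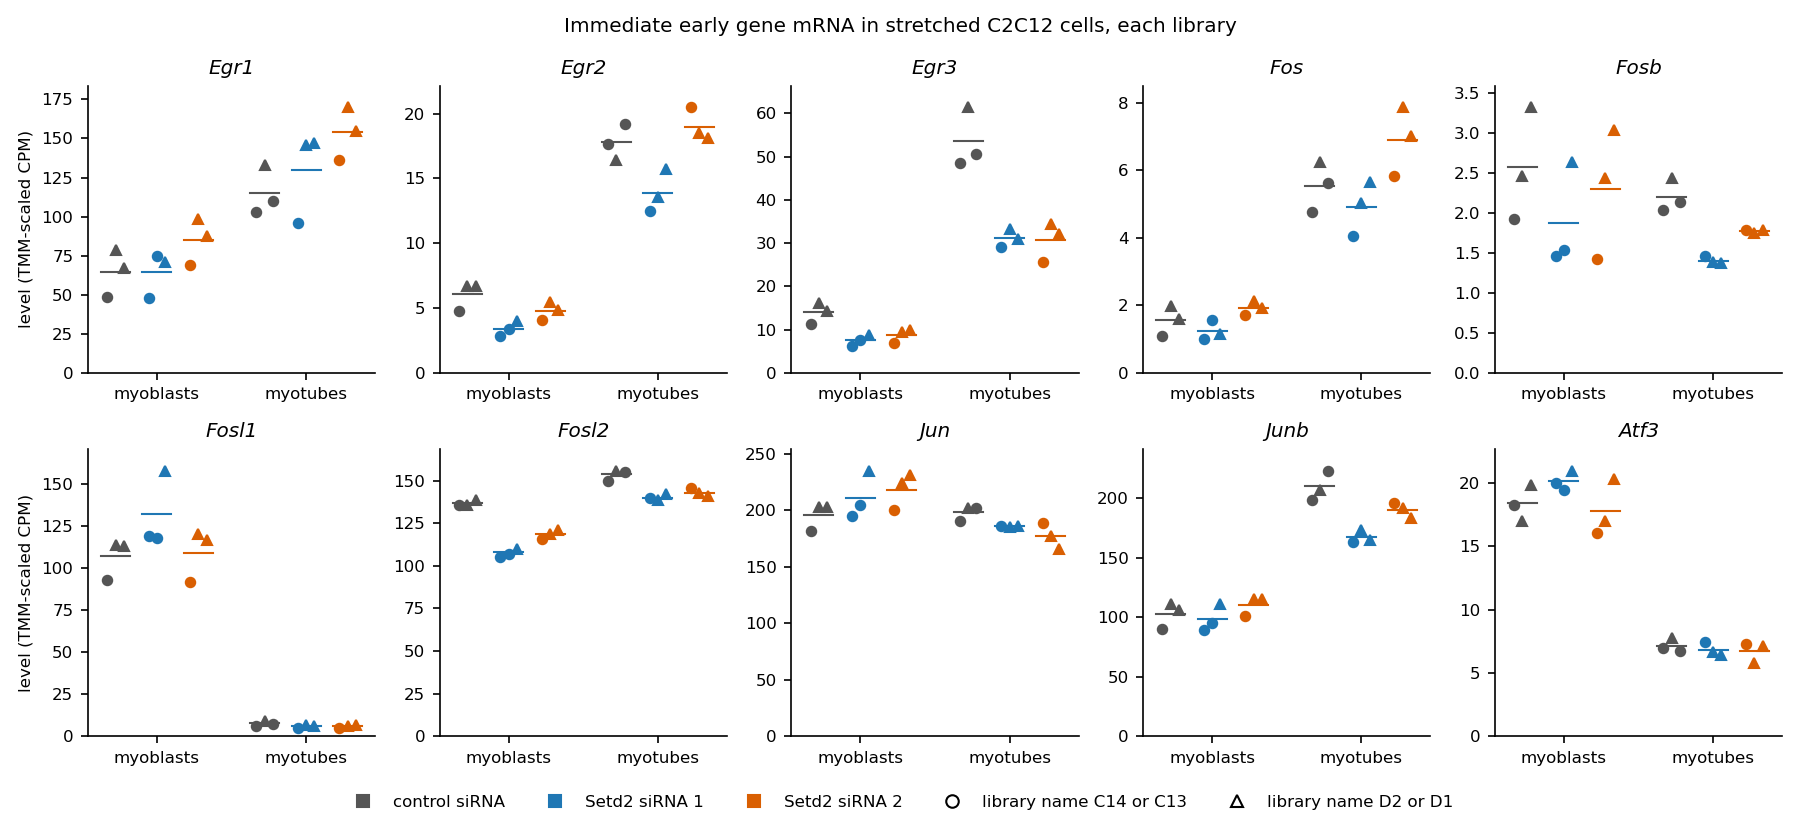
Level of each of the 10 genes in every library, in TMM-scaled CPM on a linear axis from 0. Points are the 3 libraries of a group (circles for names beginning C14 or C13, triangles for D2 or D1), bars the group means, grey control, blue siRNA 1 and orange siRNA 2. Egr3 libraries with either siRNA lie below all control libraries of their stage, and Fosl1 is high in myoblasts and low in myotubes.

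Between control myoblasts and control myotubes, 6 of the 10 genes were higher in myotubes and 2 were lower, in edgeR's quasi-likelihood test with Benjamini-Hochberg adjustment over 16930 genes, at an adjusted p under 0.05. Of all genes tested, 39.4% rose and 38.1% fell, so a call in itself is common in this comparison. The median log2 difference was 0.50 over the members and 0.004 over all genes. Stage, deposited table and library prefix change together here and cannot be told apart, and fewer cells of a type and less RNA per cell cannot be told apart in these bulk libraries. Labels call the libraries biological replicates without saying whether they were separate cultures. The p-values therefore set a difference against the spread between these libraries, which may not be that between cultures. Each of the 8 calls held under all 12 alternatives run for this comparison.

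Egr1, Egr2 and Egr3 were each higher in myotubes. Egr3, which is needed for muscle spindle formation, was at 11.2, 16.2 and 14.4 CPM in control myoblasts and at 48.6, 61.4 and 50.7 CPM in control myotubes. The groups do not overlap, and the fitted difference was 3.85-fold (log2 1.94 ± 0.17, SE, adjusted p = 7.61e-08). Egr2, best known for its part in Schwann cell myelination, was at 4.77, 6.73 and 6.71 CPM against 17.7, 16.4 and 19.2 (log2 1.55 ± 0.14, adjusted p = 1.1e-08). Egr1, the most widely studied of the family, was at 48.3, 78.7 and 67.1 CPM against 103, 133 and 110 (log2 0.83 ± 0.23, adjusted p = 0.005). Neither gene's groups overlap. The summed Egr TPM is that of Egr1, Egr2 and Egr3. Egr1 made up 59.5% to 62% of it in control myoblasts and 42.6% to 43.8% in control myotubes. Egr3 made up 31.9% to 34.1% and 48.9% to 50.1%, respectively.

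The Fos family changed its main member. Fosl1, which encodes Fra-1 and is linked to proliferating and migrating cells, was at 93, 114 and 113 CPM in control myoblasts and at 6.24, 9.02 and 7.52 CPM in control myotubes, 13.8-fold lower (log2 -3.79 ± 0.19, adjusted p = 1.62e-10). Fos, in contrast, was at 1.09, 1.98 and 1.59 CPM in myoblasts and at 4.77, 6.26 and 5.62 CPM in myotubes, 3.6-fold higher (log2 1.85 ± 0.20, adjusted p = 5.63e-08). Both separations were complete. Fosl2, which encodes Fra-2, differed little: it was at 136, 136 and 139 CPM against 150, 156 and 155 (log2 0.16 ± 0.03, adjusted p = 6.96e-05). Fosb, at 1.92, 2.46 and 3.32 CPM against 2.03, 2.43 and 2.14, was not called (log2 -0.22 ± 0.25, adjusted p = 0.433). In TPM, Fosl1 held 70.4% to 74.8% of the summed Fos family in control myoblasts and 12.1% to 15.8% in control myotubes, Fosl2 23.3% to 27.8% and 71.3% to 77.7%, and Fos 1.03% to 1.14% and 8.55% to 11%. The sum itself was 158 to 182 TPM in control myoblasts and 62.2 to 68.2 in control myotubes.

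Of the Jun genes, Junb, which encodes a weaker activator than Jun, was at 90.4, 111 and 106 CPM in control myoblasts and at 198, 207 and 223 CPM in control myotubes, 2.04-fold higher (log2 1.03 ± 0.08, adjusted p = 8.85e-09). Jun was at 182, 203 and 203 CPM against 190, 202 and 202, with overlapping groups and no call (log2 0.02 ± 0.07, adjusted p = 0.843). The share of Jun in the summed Jun and Junb TPM was 50.1% to 52.6% in control myoblasts and 33.3% to 35% in control myotubes. Atf3 was at 18.3, 17 and 19.9 CPM in control myoblasts and at 7.01, 7.73 and 6.74 CPM in control myotubes, 2.57-fold lower without overlap (log2 -1.36 ± 0.10, adjusted p = 5.73e-11).

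**Figure D2:**
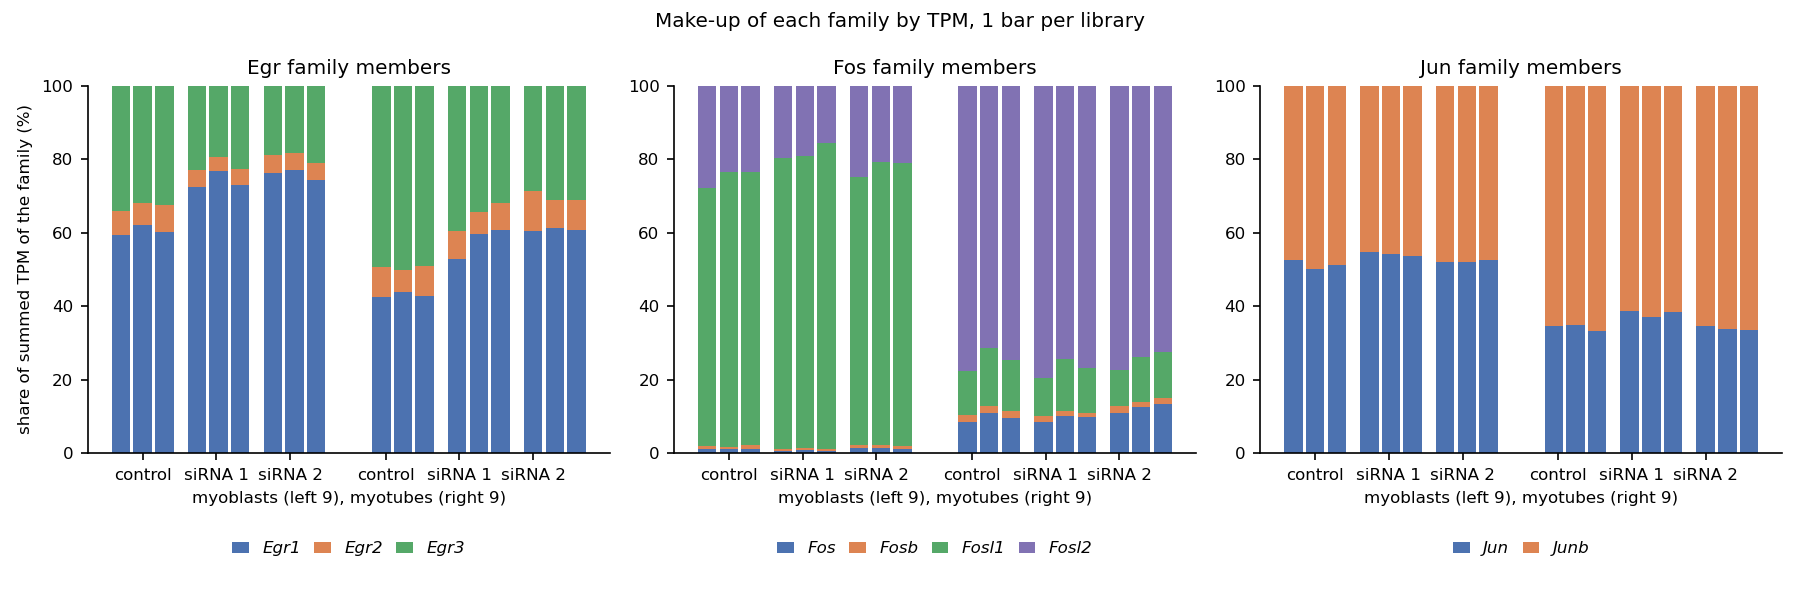
Make-up of the Egr, Fos and Jun genes by TPM, 1 stacked bar per library, in percent of the summed TPM of the genes shown; the left 9 bars are myoblasts and the right 9 myotubes, in the order control, siRNA 1 and siRNA 2. Fosl1 fills most of the myoblast Fos bars and Fosl2 most of the myotube bars, and the Egr3 share is smaller with either siRNA in both stages.

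With Setd2 depleted, some of the genes fell. In the edgeR fits of all 9 libraries of a stage without further terms, none rose past the threshold. With siRNA 1 in myoblasts, 3 of the 10 fell (Egr2, Egr3 and Fosl2) and 0 rose, against 8.44% and 11.6% of the 15586 genes tested. With siRNA 2 in myoblasts, 2 fell (Egr3 and Fosl2) and 0 rose, against 16.5% and 17.1%. With siRNA 1 in myotubes, 5 fell (Egr2, Egr3, Fosb, Fosl2 and Junb) and 0 rose, against 9.57% and 11.0% of 16097 genes. With siRNA 2 in myotubes, 4 fell (Egr3, Fosl2, Jun and Junb) and 0 rose, against 16.4% and 15.8%. At an unadjusted edgeR p under 0.05 the rises numbered 0, 0, 0 and 1 in the same order, the last being Fos, and DESeq2 and limma on TPM each called 0 rises in all 4. Without siRNA 2 replicate 1 in myotubes, Fos was called higher with siRNA 2 (log2 0.41, adjusted p = 0.0326). Fits with a further term, which leave fewer residual degrees of freedom, called rises too. With the name prefix in the model these were Fosl1 and Jun (siRNA 1) and Jun and Junb (siRNA 2) in myoblasts, and Egr1 with siRNA 2 in myotubes. With same-prefix libraries summed as well, Egr1 with either siRNA and Atf3 with siRNA 1 in myoblasts joined them. With the replicate number as a block they were Jun with either siRNA and Egr1 with siRNA 2 in myoblasts, and Egr1 and Fos with siRNA 2 in myotubes. The 4 comparisons come from 2 sets of controls, since both siRNAs of a stage share theirs.

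With each siRNA of a stage, 2 members fell in myoblasts and 3 in myotubes, against 4.25% and 6.27% of all genes tested, and 0 rose, against 7.69% and 7.14%. Egr3 and Fosl2 were called lower in all 4 comparisons, as were 93 of 14825 genes tested in both stages, or 0.627%. The median log2 fold change over the 10 members was -0.20 and 0.00 in myoblasts with siRNA 1 and siRNA 2, and -0.25 and -0.12 in myotubes, where the medians over all genes lay between -0.010 and 0.005. On the TPM scale the called genes as a whole lean to falls: rises made up 27.8%, 36.7%, 30.3% and 24.7% of limma's calls in the 4 comparisons, against 57.9%, 50.9%, 53.4% and 49.1% of edgeR's.

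**Figure D3:**
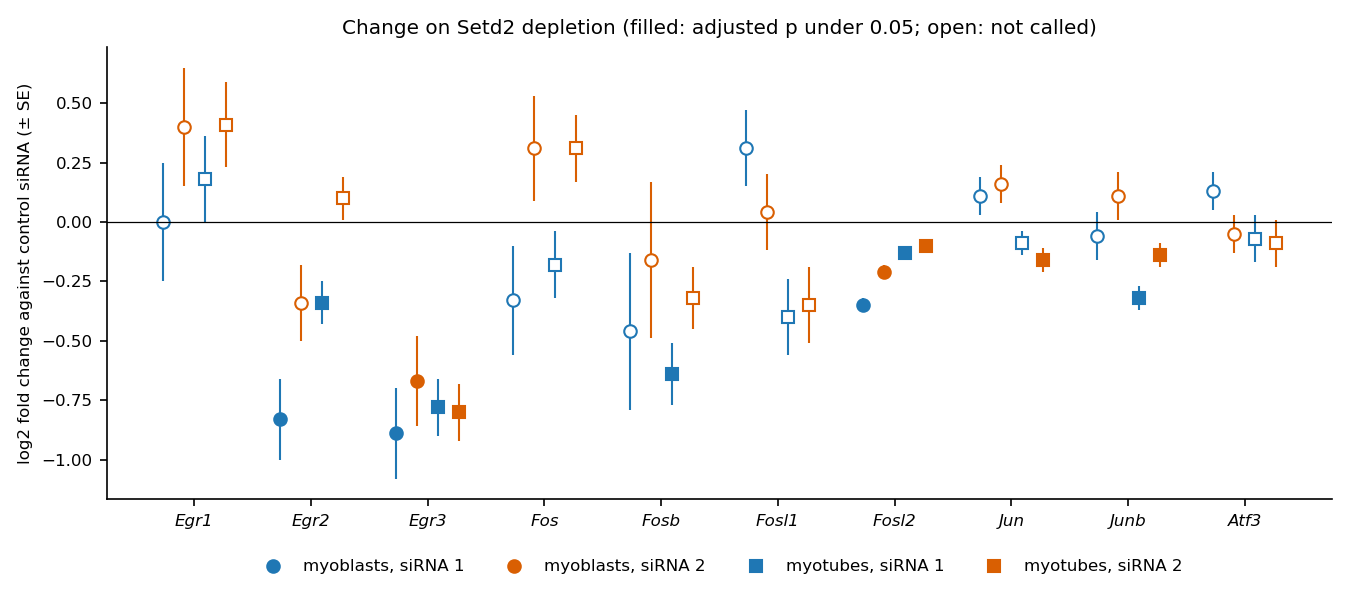
Fitted log2 fold change of each gene against the control siRNA of its stage, with its standard error; circles are myoblasts and squares myotubes, blue siRNA 1 and orange siRNA 2, filled where the adjusted p was under 0.05. All 4 Egr3 values lie between -0.89 and -0.67, and no filled symbol lies above 0.

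Egr3 showed the largest falls of the 10 in each of the 4 comparisons. In myoblasts it was at 11.2, 16.2 and 14.4 CPM with the control siRNA, at 6.13, 7.61 and 8.77 CPM with siRNA 1 and at 6.88, 9.37 and 9.97 CPM with siRNA 2. In myotubes it was at 48.6, 61.4 and 50.7 CPM with the control siRNA, at 29, 33.3 and 31 CPM with siRNA 1 and at 25.7, 34.5 and 32 CPM with siRNA 2. Every depleted library was below every control of its stage. The mean fell by 46.3% with siRNA 1 (log2 -0.89 ± 0.19, SE, adjusted p = 0.0121) and fell by 37.4% with siRNA 2 (log2 -0.67 ± 0.19, adjusted p = 0.0247) in myoblasts. In myotubes it fell by 42% (log2 -0.78 ± 0.12, adjusted p = 0.00287) and fell by 42.6% (log2 -0.80 ± 0.12, adjusted p = 0.0014). The absolute level in depleted myotubes still exceeded that of every control myoblast library.

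Within libraries of 1 name prefix the differences of Egr3 in mean log2(CPM + 0.5), the scale of all within-prefix values here, ran from -0.64 to -0.94 over the 8 combinations of prefix, stage and siRNA. The calls of siRNA 1 in myoblasts and of both siRNAs in myotubes held under all 15 alternatives. That of siRNA 2 in myoblasts was lost in 5: with no filter on low counts (adjusted p = 0.0743), and without siRNA 2 replicate 1 (0.0639) or 2 (0.0505) or control replicate 2 (0.0759) or 3 (0.0713), with log2 values of -0.72 to -0.53. It held without the library whose column reads SETD3.

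Neither of the other Egr members was called lower in all 4 comparisons, as Egr3 was. Egr1 was at 48.1, 75 and 70.7 CPM with siRNA 1 and at 69.1, 98.4 and 87.7 CPM with siRNA 2 in myoblasts, each overlapping the controls. Each siRNA 2 library was nevertheless above the control library of the same number, with which it shares its name prefix. In the myotube groups it was at 96.1, 146 and 147 CPM with siRNA 1 and, with siRNA 2, at 136, 170 and 155 CPM, above all 3 controls. None of the 4 differences was called without a further term, at log2 0.00 ± 0.25 and 0.40 ± 0.25 in myoblasts and 0.18 ± 0.18 and 0.41 ± 0.18 in myotubes (adjusted p = 1, 0.291, 0.572 and 0.139). With the replicate block the siRNA 2 value passed in myoblasts (log2 0.41, adjusted p = 5.49e-07) and in myotubes (0.42, adjusted p = 0.0118). With the name prefix in the model it passed in myotubes, at log2 0.29 (adjusted p = 0.0165), and with same-prefix libraries summed as well it passed in myoblasts, at 0.42 (adjusted p = 4.99e-09).

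Egr2 fell with siRNA 1 in both stages. In myoblasts it was at 2.84, 3.38 and 4.01 CPM with siRNA 1, below all controls, and at 4.05, 5.46 and 4.85 CPM with siRNA 2, which overlapped them. The mean fell by 43.9% with siRNA 1 (log2 -0.83 ± 0.17, adjusted p = 0.00494) under all 15 alternatives, and the siRNA 2 value was log2 -0.34 ± 0.16 (adjusted p = 0.14). That value passed in 4 of 15 alternatives: with the prefix in the model (-0.33, adjusted p = 0.0024), also with libraries summed (0.00424), with the replicate block (0.00933) and without control replicate 1 (-0.50, 0.0248). The myotube values were 12.5, 13.6 and 15.7 CPM with siRNA 1 and at 20.5, 18.5 and 18.1 CPM with siRNA 2. There it fell by 21.6% with siRNA 1 (log2 -0.34 ± 0.09, adjusted p = 0.0173), a call lost in 6 of 15 alternatives, among them those without control replicate 1 (adjusted p = 0.052) or 3 (0.0683) or siRNA 1 replicate 1 (0.0524) or 2 (0.0687). The siRNA 2 value was log2 0.10 ± 0.09 (adjusted p = 0.422). Within a prefix the siRNA 1 differences were -0.55 and -0.68 in myoblasts and -0.54 and -0.16 in myotubes.

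The make-up of the Egr mRNA moved accordingly. In myoblasts Egr1 made up 72.5% to 76.9% of the summed Egr TPM with siRNA 1 and 74.4% to 77% with siRNA 2, and Egr3 19.3% to 22.8% and 18.2% to 21%. In myotubes Egr1 made up 52.8% to 60.8% and 60.6% to 61.4%, and Egr3 32% to 39.6% and 28.7% to 31.2%. None of these ranges overlaps that of its control libraries, given above. The split of Egr1 between its listed transcripts stayed near its control value, with Egr1-202 at 77.7% to 80.2% of the gene's counts in all 6 groups.

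Fosl2 was the other gene lower in all 4 comparisons, by smaller steps and with the tightest libraries. In myoblasts it was at 136, 136 and 139 CPM with the control siRNA, at 105, 107 and 110 CPM with siRNA 1 and at 116, 119 and 121 CPM with siRNA 2, without overlap between any of these groups. The mean fell by 21.6% (log2 -0.35 ± 0.03, adjusted p = 5.48e-06) and fell by 13.7% (log2 -0.21 ± 0.03, adjusted p = 0.000138), and both calls held under all 15 alternatives. In myotubes it was at 150, 156 and 155 CPM in controls, at 140, 139 and 142 CPM with siRNA 1 and at 146, 143 and 141 CPM with siRNA 2. There the mean fell by 8.67% (log2 -0.13 ± 0.03, adjusted p = 0.0187) and fell by 6.8% (log2 -0.10 ± 0.03, adjusted p = 0.0322). The myotube calls were less stable: that of siRNA 1 was lost in 5 of 15 alternatives, among them those without control replicate 2 (0.0645) or 3 (0.0575) or siRNA 1 replicate 2 (0.101) or 3 (0.0622), and that of siRNA 2 in 6, among them those without control replicate 2 (0.0938) or 3 (0.0958) or siRNA 2 replicate 2 (0.154) or 3 (0.171). Within a prefix all 8 differences were below 0, at -0.36 to -0.20 in myoblasts and -0.15 to -0.06 in myotubes.

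Fos, at low counts, was not called against control with either siRNA in the edgeR fits of all 9 libraries of a stage without further terms. In myoblasts it was at 0.988, 1.57 and 1.14 CPM with siRNA 1 and at 1.7, 2.13 and 1.92 CPM with siRNA 2, both overlapping the controls (log2 -0.33 ± 0.23 and 0.31 ± 0.22). In myotubes it was at 4.06, 5.04 and 5.65 CPM with siRNA 1 and at 5.82, 7.87 and 7.01 CPM with siRNA 2 (log2 -0.18 ± 0.14 and 0.31 ± 0.14). Adjusted p ran from 0.112 to 0.425. Within a prefix the siRNA 1 differences were 0.14 in C14, -0.48 in D2, -0.32 in C13 and -0.21 in D1, so their direction was not shared in myoblasts, and those of siRNA 2 were 0.15 to 0.47. The siRNA 1 value passed with limma on TPM in myoblasts (-0.45, adjusted p = 0.0383) and with the prefix in the model in myotubes (-0.28, adjusted p = 0.0388). The siRNA 2 value in myotubes passed with the replicate block (0.31, adjusted p = 0.0166) and without siRNA 2 replicate 1 (0.41, adjusted p = 0.0326).

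Fosb fell with siRNA 1 in myotubes, where it was at 1.46, 1.39 and 1.37 CPM against 2.03, 2.43 and 2.14 in controls. The mean fell by 36.1% (log2 -0.64 ± 0.13, adjusted p = 0.00431). This call was lost when all 18 libraries were fitted together (adjusted p = 0.0903) and held in the other 14 alternatives. Within a prefix the difference was -0.40 in C13 and -0.64 in D1. With siRNA 2 it was at 1.79, 1.75 and 1.78 CPM, also below every control but not called (log2 -0.32 ± 0.13, adjusted p = 0.0762). In myoblasts its libraries spread widely, at 1.46, 1.53 and 2.63 CPM with siRNA 1 and 1.42, 2.43 and 3.04 CPM with siRNA 2, and neither difference was called (log2 -0.46 ± 0.33 and -0.16 ± 0.33). The siRNA 1 value passed with the replicate block (-0.46, adjusted p = 0.0245). Its short form, which lacks 140 bases (chr7:19305007-19305146) and encodes the truncated protein known as deltaFosB, took 36 of 438 Fosb reads in control myoblasts and 7 of 356 in control myotubes, pooled over libraries. Per library its share ran from 0% to 24.1%, an estimated split of few reads.

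Fosl1 was not called against control without a further term. In myoblasts it was at 119, 118 and 158 CPM with siRNA 1, above all 3 controls (log2 0.31 ± 0.16, adjusted p = 0.24), and at 92, 120 and 117 CPM with siRNA 2 (log2 0.04 ± 0.16, adjusted p = 0.877). Its myotube values were 4.72, 6.88 and 5.76 CPM with siRNA 1 (log2 -0.40 ± 0.16, adjusted p = 0.116) and at 4.98, 6.34 and 6.63 CPM with siRNA 2 (log2 -0.35 ± 0.16, adjusted p = 0.13). With the prefix in the model, the siRNA 1 value in myoblasts passed at log2 0.42 (adjusted p = 1.81e-13), and those in myotubes passed at -0.52 and -0.47. The myotube values also passed with the replicate block (-0.39 and -0.34, adjusted p = 0.00678 and 0.00876). In myoblasts its share of the summed Fos family TPM was 79.4% to 83.5% in the siRNA 1 libraries, against 70.4% to 74.8% in controls.

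Junb fell in myotubes. It was at 198, 207 and 223 CPM in controls, at 163, 173 and 165 CPM with siRNA 1 and at 196, 192 and 183 CPM with siRNA 2. The mean fell by 20.3% with siRNA 1 (log2 -0.32 ± 0.05, adjusted p = 0.000627), which held under all 15 alternatives. It fell by 9.38% with siRNA 2 (log2 -0.14 ± 0.05, adjusted p = 0.0342), which was lost in 6, among them those without control replicate 2 (0.0559) or 3 (0.147) or siRNA 2 replicate 2 (0.107) or 3 (0.175). Within a prefix the differences were -0.37 and -0.29 with siRNA 1 and -0.10 and -0.15 with siRNA 2. In myoblasts Junb was at 88.9, 95.4 and 111 CPM with siRNA 1 and at 101, 115 and 115 CPM with siRNA 2, overlapping the controls (log2 -0.06 ± 0.10 and 0.11 ± 0.10, adjusted p = 0.753 and 0.484). The siRNA 2 value passed with the prefix in the model (0.11, adjusted p = 0.00199).

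Jun moved less. In myotubes it was at 190, 202 and 202 CPM in controls, at 186, 185 and 186 CPM with siRNA 1 and at 189, 177 and 166 CPM with siRNA 2, both groups below every control. The siRNA 1 value was not called (log2 -0.09 ± 0.05, adjusted p = 0.22). The siRNA 2 value was, where the mean fell by 10.6% (log2 -0.16 ± 0.05, adjusted p = 0.019), and it was lost in 6 of 15 alternatives, among them those without control replicate 2 (0.0628) or 3 (0.0694) or siRNA 2 replicate 2 (0.0806) or 3 (0.115). Within a name prefix that difference was -0.05 in C13 and -0.24 in D1. In myoblasts Jun was at 195, 205 and 235 CPM with siRNA 1 and at 200, 224 and 231 CPM with siRNA 2, and neither was called (log2 0.11 ± 0.08 and 0.16 ± 0.08). With the prefix in the model both passed, at log2 0.17 and 0.16, as they did with the replicate block (0.11, adjusted p = 0.0146, and 0.16, adjusted p = 0.000719).

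Atf3, induced by many stresses, was called against control in 1 alternative only, with siRNA 1 in myoblasts when same-prefix libraries were summed and the prefix fitted (log2 0.16, adjusted p = 0.0181). It was at 20, 19.5 and 21 CPM with siRNA 1 and at 16.1, 17 and 20.3 CPM with siRNA 2 in myoblasts, and at 7.43, 6.63 and 6.41 CPM and 7.29, 5.81 and 7.13 CPM in myotubes. The log2 differences ran from -0.09 to 0.13 with standard errors of 0.08 to 0.10, and every depleted group overlapped its controls.

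Some of the marker sums also differed between the groups. In myotubes all 11 myotube markers were at 1 CPM or more, and they summed to 17243 to 18594 CPM in the control group, 20478 to 20854 in the siRNA 1 group and 19408 to 21600 in the siRNA 2 group. In myoblasts the 7 myoblast markers summed to 1747 to 2054, 2173 to 2320 and 2465 to 2668 CPM in the same order. Their ranges overlapped in myotubes, at 6248 to 6794, 6602 to 6855 and 6201 to 6735 CPM. Those of the myotube markers overlapped in myoblasts, at 36.5 to 102, 39.9 to 102 and 71.2 to 149 CPM. The 7 fibroblast markers summed to 1035 to 1294, 1197 to 1446 and 1489 to 1802 CPM in myoblasts, so that the siRNA 2 range lies above the controls, with Col1a1 at means of 60.8, 101 and 150 CPM. In myotubes they summed to 1240 to 1589, 1195 to 1528 and 1026 to 1481 CPM. The endothelial markers summed to 0.933 to 1.16 CPM in control myotubes and to 2.02 to 2.67 with siRNA 2. Most of these low sums was Tek, at means of 0.833 and 1.88 CPM. The share of counts from ribosomal RNA-like genes was 1.2% to 1.36% in the control group, 3.56% to 3.91% in the siRNA 1 group and 1.46% to 4.1% in the siRNA 2 group of myoblasts. In myotubes it was 1.27% to 2.3%, 1.5% to 2.88% and 2.26% to 2.99%, respectively. The part of these in the results above was not tested.

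The siRNAs were then compared with each other, since both target the same mRNA. In myoblasts 1 member of 10 was called, against 26.3% of 15586 genes: Fosl2 was higher with siRNA 2 than with siRNA 1 (log2 0.14 ± 0.03, adjusted p = 0.00357), under all 15 alternatives. In myotubes 3 of 10 were called, against 17.1% of 16097 genes, and all 3 were higher with siRNA 2. Egr2 differed by log2 0.44 ± 0.09 (adjusted p = 0.00503, held in 15 of 15 alternatives), Fos by 0.49 ± 0.14 (adjusted p = 0.0332, held in 8 of 15) and Junb by 0.18 ± 0.05 (adjusted p = 0.0207, held in 10 of 15). Their promoter windows are those printed above, and each holds TGACG, as do those of Fosb and Atf3, which were not called here. In myoblasts Fos (log2 0.64 ± 0.23, adjusted p = 0.0565) and Egr2 (log2 0.49 ± 0.17, adjusted p = 0.0545) missed the threshold. Fos passed it in 9 of 15 alternatives, among them DESeq2 (adjusted p = 0.043), limma on TPM (0.017) and 1 fit of all libraries (0.0415), and Egr2 in 7 of 15, among them DESeq2 (0.0205) and 1 fit of all libraries (0.0333). Fitting the prefix, which is split unevenly between these myoblast groups, put Fos at log2 0.54 (adjusted p = 0.027) and Egr2 at 0.36 (adjusted p = 0.00389). Of the others in myoblasts, Atf3 passed in 4 of 15, lower with siRNA 2, Junb in 3, and Egr1 and Fosl1 in 2 each. Egr3 was at log2 0.22 ± 0.20 in myoblasts, passing with the replicate block alone (0.22, adjusted p = 0.0338), and at -0.02 ± 0.12 in myotubes.

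The depletion effect, averaged over both siRNAs, was compared between stages by an interaction term in the fit of 18 libraries. It was called for 2 of 10 members, against 23.4% of 16930 genes. Fosl2 fell more in myoblasts (mean log2 -0.28) than in myotubes (-0.11), a difference of 0.17 ± 0.04 (adjusted p = 0.00284). The mean effect on Jun was 0.14 in myoblasts and -0.13 in myotubes, a difference of -0.26 ± 0.08 (adjusted p = 0.0318), although neither siRNA moved Jun past the threshold in myoblasts. The mean effects on Egr3 were -0.78 and -0.79, with a difference of -0.01 ± 0.21 (adjusted p = 0.999). Egr2 (0.47 ± 0.17, adjusted p = 0.0565), Junb (-0.26 ± 0.10, adjusted p = 0.0848) and Fosl1 (-0.56 ± 0.23, adjusted p = 0.101) did not pass here. With DESeq2 all 3 passed (adjusted p = 0.026, 0.0255 and 0.0463), as they did with the replicate block and with the prefix in the model, so that Egr2 was called in 8, Junb in 6 and Fosl1 in 4 of 26 alternatives.

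Between libraries of 1 group most of these genes varied more than the median gene. The pooled SD of log2(CPM + 0.5) within groups was 0.32 in myoblasts and 0.25 in myotubes for Egr1, and 0.26 and 0.17 for Egr3. For Fos it was 0.25 and 0.20, for Fosl1 0.21 and 0.24, and for Egr2 0.23 and 0.12. Fosb had the widest spread in myoblasts at 0.39 and a narrow one in myotubes at 0.07. Jun (0.12 and 0.06), Junb (0.14 and 0.06) and Atf3 (0.12 and 0.13) lay lower. The median over 12685 genes with a mean of at least 1 CPM was 0.066 and 0.071, and only Fosl2, at 0.03 in each stage, lay below it in both.

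Much of this spread was shared by the members. In each myoblast group the first library, whose name begins with C14, was the lowest of its group, for 9 of 10 genes in controls, 8 with siRNA 1 and 10 with siRNA 2. Averaged over the members, the log2 deviation of these libraries from their group means was -0.21, -0.17 and -0.21. The second siRNA 1 library, also C14, lay at 0.01, and the 5 D2 libraries all above 0, at up to 0.17. In myotubes the pattern was weaker: control replicate 1 was lowest for 8 genes and control replicate 2 highest for 8, while with siRNA 2 the first library was highest for 6 and lowest for 4. Over the 18 libraries, the genes whose deviations were most like the mean of the members were Ereg (Pearson r = 0.95), Gfod1, Ier3 and Lrrfip1 (0.94 each), and Atp6v1h and Wdr81 (0.93 each), out of 12685 genes compared. Libraries share depth and handling, so these values describe likeness and carry no test.

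**Figure D4:**
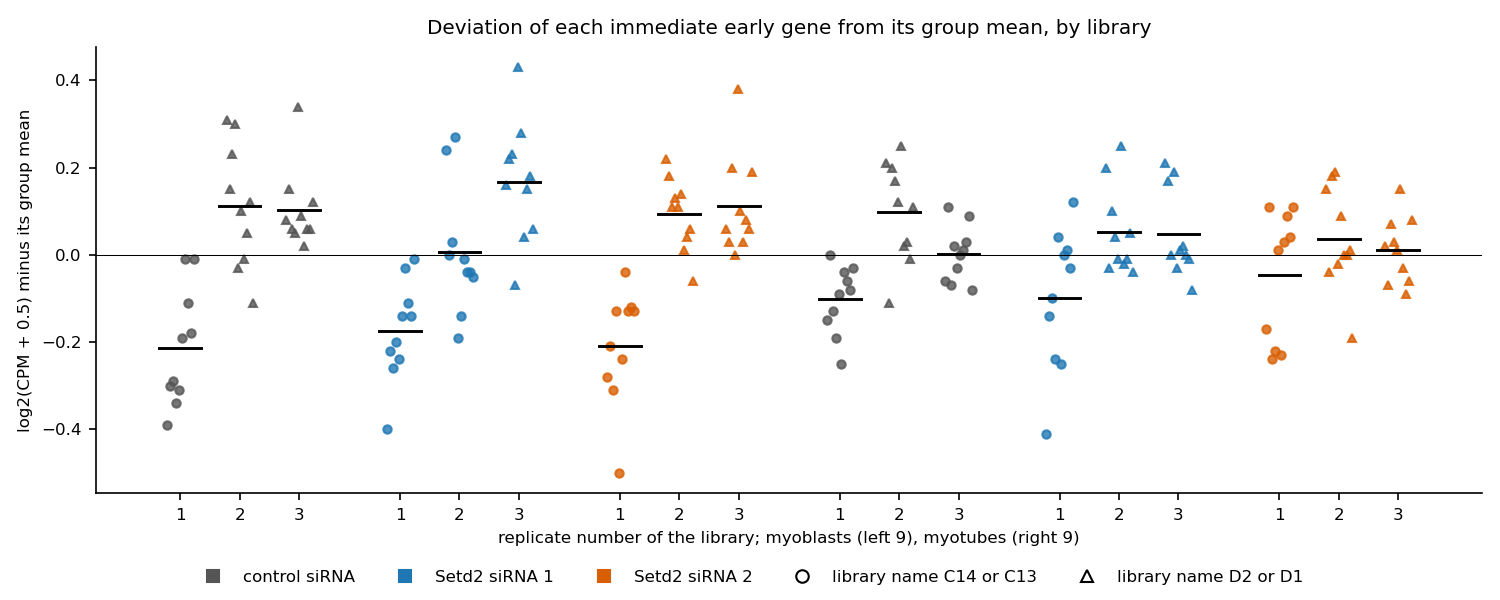
Deviation of each of the 10 genes from its group mean, in log2(CPM + 0.5), by library; each point is 1 gene, the bar their mean, circles names beginning C14 or C13 and triangles D2 or D1, and the numbers on the axis the replicates. The first myoblast library of each group has nearly all its points below 0.

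The pathway around the 10 genes was described from lists of its other parts, by counts and medians. Over all genes tested, rises made up 11.6% and 17.1% in myoblasts with siRNA 1 and siRNA 2 and 11.0% and 15.8% in myotubes, and falls 8.44%, 16.5%, 9.57% and 16.4%. Between the control stages, 39.4% of all genes were higher and 38.1% lower in myotubes. The counts of each list stand beside these shares. The 35 other immediate early and primary response genes tested held 3 rises and 3 falls with siRNA 1 and 11 and 4 with siRNA 2 in myoblasts. In myotubes they held 0 rises (3 at an unadjusted edgeR p under 0.05, 3 by DESeq2 and 0 by limma) and 7 falls with siRNA 1, and 8 and 9 with siRNA 2. Their median log2 fold changes were -0.07 and 0.12 in myoblasts and -0.13 and -0.02 in myotubes. In myoblasts Sgk1, a kinase of salt and stress responses, fell with each siRNA from 115 ± 12.1 CPM to 74.7 ± 8.6 and 67.1 ± 8.82 (log2 -0.62 and -0.77). Plk2 fell from 139 ± 5.81 CPM to 121 ± 3.45 and 75.3 ± 3.7. The stress genes Gadd45g (log2 0.35 and 0.60) and Gadd45b (0.25 and 0.93) rose. In myotubes Myc fell from 27.1 ± 4.25 CPM to 18.7 ± 0.342 and 21.9 ± 0.645 (log2 -0.54 and -0.32), as did Mafk (-0.20 and -0.35) and Sgk1 (-0.31 and -0.18). Between the control stages 14 of the 35 were higher and 14 lower in myotubes, with Gadd45a (log2 3.21) and Nr4a3 (2.92) highest and Ptgs2, which encodes an enzyme of prostaglandin synthesis, lower (-2.19).

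The 18 phosphatases and inhibitors that feed back on MAP kinases held 2 rises and 5 falls with siRNA 1 and 6 and 2 with siRNA 2 in myoblasts. In myotubes 2 fell with siRNA 1 and 3 with siRNA 2, where 2 rose. The medians were -0.02 and 0.02 in myoblasts and -0.11 and 0.04 in myotubes. Dusp6, the phosphatase of ERK, fell in myoblasts from 82.2 ± 6.64 CPM to 56.9 ± 0.803 and 47.3 ± 6.96 (log2 -0.53 and -0.79), and Spred3 (0.48 and 0.40) and Dusp14 (0.35 and 0.37) rose. In myotubes Spred1 fell with each siRNA (-0.19 and -0.12). Between the control stages 13 of 18 were lower and 2 higher in myotubes, with a median log2 difference of -0.64 against 0.004 over all genes. Dusp4 was at 248 ± 19 CPM in myoblasts and 47.1 ± 6.7 in myotubes (log2 -2.39), Dusp5 at 61.1 ± 8.38 and 13.7 ± 1.27 (-2.15), while Spry1 was at 6.09 ± 0.336 and 52.9 ± 6.09 (3.12).

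Of the 27 upstream kinases and transcription factors, 4 rose and 3 fell with siRNA 1 and 10 rose and 5 fell with siRNA 2 in myoblasts. In myotubes 1 rose and 5 fell with siRNA 1, and 1 and 8 with siRNA 2. All 4 medians of this list lay between -0.06 and 0.00. Map2k1, which encodes the ERK kinase MEK1, rose in myoblasts from 46 ± 2.59 CPM to 73.9 ± 1.16 and 71.1 ± 1.14 (log2 0.69 and 0.63). Elk3, a ternary complex factor gene (0.21 and 0.33), also rose, and Map2k7, a kinase of JNK, fell (-0.20 and -0.30). In myotubes Rps6ka1, which encodes an RSK kinase downstream of ERK, fell from 5.76 ± 0.432 CPM to 2.83 ± 0.196 and 4.35 ± 0.726 (-1.02 and -0.41), and the CREB coactivator gene Crtc1 fell (-0.17 and -0.23). Between control stages 12 were higher and 11 lower in myotubes, with Rps6ka4 (-1.58), Elk3 (-1.33) and Map2k1 (0.91) moving most.

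The partners and corepressors of AP-1 and Egr proteins had 14 members tested in each stage. With siRNA 1, 5 rose and 4 fell in myoblasts and 1 rose and 2 fell in myotubes, and with siRNA 2, 5 and 3, and 5 and 1. The medians were 0.03 to 0.08. Jund, the Jun gene that is not immediate early, rose in myoblasts from 141 ± 9.43 CPM to 175 ± 1.44 and 172 ± 7 (log2 0.31 and 0.29), and so did Atf4 (0.19 and 0.19) and the JNK scaffold gene Mapk8ip1 (0.35 and 0.45), while Mafg fell (-0.23 and -0.20). In myotubes Mapk8ip1 rose again (0.27 and 0.28), and Jdp2, a repressor that dimerizes with Jun, fell (-0.14 and -0.46). In the stage comparison 7 of 15 were higher and 5 lower in control myotubes. Maf (log2 1.98) and Wwox (0.99) were higher, and Nab1, a corepressor of Egr proteins, was lower (-1.23).

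Known target genes of AP-1 and Egr factors held 4 rises and 9 falls among 24 tested with siRNA 1 in myoblasts, and 10 and 3 with siRNA 2. In myotubes, of 25 tested, 1 rose and 10 fell with siRNA 1 and 5 rose and 4 fell with siRNA 2. The medians were -0.17 and 0.20 in myoblasts and -0.24 and 0.00 in myotubes. The adhesion receptor gene Cd44 rose in myoblasts from 779 ± 19.7 CPM to 1100 ± 10.2 and 1183 ± 18.5 (log2 0.50 and 0.61), as did Hmox1 (0.26 and 0.39), and Mmp10 fell (-0.49 and -0.46). In myotubes the collagen crosslinking enzyme gene Lox fell from 506 ± 24.4 CPM to 377 ± 21.9 and 362 ± 28.3 (-0.42 and -0.49), together with the cytokine gene Lif (-0.40 and -0.35) and the protease gene Plau (-0.34 and -0.22). Between control stages 9 of 26 were higher and 14 lower in myotubes. Dcn (4.49) was higher, and Areg (-4.18) and Plaur (-4.02), the urokinase receptor gene, were lower.

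Among 18 decay factors of AU-rich mRNAs, 1 rose and 4 fell with siRNA 1 and 4 and 4 with siRNA 2 in myoblasts, and 1 and 1, and 5 and 4, in myotubes. The medians ran from -0.08 to 0.05. Zfp36l1, a relative of tristetraprolin, rose in myoblasts from 14.7 ± 2.51 CPM to 22.7 ± 2.75 and 27.8 ± 1.92 (log2 0.63 and 0.92). The decapping enzyme gene Dcp2 fell from 48.7 ± 3.23 CPM to 36.2 ± 0.686 and 31.5 ± 1.63 (-0.42 and -0.62), as did the exosome gene Exosc10 (-0.11 and -0.28). In myotubes Dcp1a, which encodes a decapping activator, fell (-0.16 and -0.18), and Cnot7, a deadenylase gene, rose (0.13 and 0.26). Zfp36l1 was at 102 ± 7.87 CPM in control myotubes (log2 2.79 against myoblasts) and Zfp36l2 at 571 ± 22.9 CPM in control myoblasts and 135 ± 8.63 in control myotubes (-2.08).

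As a check on another response to stress, 13 heat shock genes held 1 rise and 1 fall with siRNA 1 and 4 and 4 with siRNA 2 in myoblasts. In myotubes 1 rose and 3 fell with siRNA 1, and 4 fell with siRNA 2. The medians ran from -0.08 to 0.04. The chaperone gene Hsp90aa1 fell in myotubes from 638 ± 20.5 CPM to 542 ± 8.51 and 526 ± 38 (log2 -0.23 and -0.28), and Dnajb1 fell (-0.19 and -0.12). In myoblasts Hspb1 rose (0.19 and 0.37) and Bag3 fell (-0.26 and -0.09). Between control stages 10 of 13 were lower in myotubes, with Hspd1 (-2.15) and Hspe1 (-1.77), which encode the mitochondrial chaperonin, moving most, and Hspb8 (1.73) was higher.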

How the data were processed

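PolyA RNA was sequenced from 18 libraries in 6 groups of 3. Per the file headers, the authors deposited, for each stage, a table of estimated counts and TPM (transcript abundance per length, scaled within each library) for 115088 transcripts, in the column layout of salmon. The sources used here name no quantifier, annotation or use of strand, so reads antisense to a gene may be counted with it. The submitters' processing notes name mm10 and DESeq2 without roles. Transcripts were matched by identifier to GENCODE M21 (114200 matched, 47311 genes). The other 888 held 0.16% to 0.24% of a library's counts and were not used. Gene counts are rounded sums over transcripts.

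Tests used edgeR 4.0.16 in R 4.3.3: filterByExpr (minimum count 10), TMM, robust glmQLFit and glmQLFTest, and Benjamini-Hochberg adjustment over all genes tested. A gene is called at an adjusted p under 0.05, and adjusted p values in the text are edgeR's unless another tool is named. Each stage was fitted with its 9 libraries, and all 18 for the stage and interaction terms. A fit of 1 stage left 6 residual degrees of freedom. A replicate block or a prefix term leaves fewer, and summing same-prefix libraries fewer still. The p-values of those fits therefore rest on less information about the spread between libraries. CPM, with SD over 3 libraries, is TMM-scaled over all 18. Standard errors come from the quasi-likelihood F statistic. The scripts were tested on simulated data. No libraries held identical values. Alternatives were size factors, no filter, a replicate block, the name prefix as a factor (also with same-prefix libraries summed), DESeq2 1.42.0, limma 3.58.1 on log2(TPM + 0.5) or (TPM + 0.1), 1 fit of all libraries, and leaving out each library. The members and lists were chosen with earlier results of these data known. Named genes are all 10 members, the genes of each list called the same way with each siRNA of a stage (at most 4, by the smaller of both changes), the 3 with the largest stage difference at a mean of at least 1 CPM, and the 6 genes most like the members' mean deviation. Of the list genes this rule selects, 2 are not reported here.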

Additional observations from a re-analysis of the deposited data

Results flagged for a closer look

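For 2 of the 10 genes the depletion effect differed between the stages by a test of the difference itself. For Fosl2 the mean effect of both siRNAs was log2 -0.28 in myoblasts and -0.11 in myotubes, a difference of 0.17 (edgeR adjusted p = 0.00284), which was called in 24 of 26 alternatives and missed the threshold with limma on TPM (0.12, adjusted p = 0.0566 and 0.0554 at the pseudocounts 0.5 and 0.1). For Jun the mean effects were 0.14 and -0.13, a difference of -0.26 (adjusted p = 0.0318), called in 22 of 26 alternatives and lost, among others, without myoblast control replicate 1 (-0.21, adjusted p = 0.095). Of all genes tested, 23.4% were called for this difference. The same difference for Egr2, Junb and Fosl1 was not called but passed in 8, 6 and 4 of 26 alternatives.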

How the results depend on the processing

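Over all comparisons, 1145 of the members' values under an alternative kept their side of the threshold and their direction, 82 newly passed, 53 no longer passed and none that was called changed sign. The replicate numbers were not taken to pair the samples: deviations of same-numbered libraries correlated at over 0.1 in 14 of 18 pairs (-0.38 to 0.54), and not every library was most like its own number. In 2 of the 6 pairs of groups every same-numbered pair was over 0.1. These were control with siRNA 2 in myoblasts (0.54, 0.22 and 0.30) and siRNA 1 with siRNA 2 in myotubes (0.30, 0.12 and 0.25). Both share prefixes by number. The same-numbered pairs of unlike prefix were at -0.22 and -0.38 in myoblasts and -0.18 and -0.32 in myotubes, and every pair over 0.1 shared its prefix. With the replicate block, members called numbered 5 (siRNA 1) and 5 (siRNA 2) in myoblasts, 7 with siRNA 2 in myotubes, 7 between the siRNAs in myoblasts and 5 for the interaction. It also called Jun higher in control myotubes (0.15, adjusted p = 0.0271). With the prefix in the model they numbered 5 and 5 in myoblasts, 6 between the siRNAs there and 5 for the interaction, and with same-prefix libraries summed 7, 6, 7 and 5. That model called 5029 genes with siRNA 1 in myoblasts (3122 without it) and 6263 between the siRNAs there (4103). With 1 fit of all libraries members called numbered 3 and 2 in myotubes, and 3 and 1 between the siRNAs in myoblasts and myotubes. With no filter they numbered 1 with siRNA 2 and 2 between the siRNAs in myoblasts. DESeq2 gave 3 between the siRNAs in myoblasts and 5 for the interaction, and limma 2 and 1, with 1 between the siRNAs in myotubes, at either pseudocount. Leaving out a library gave 1 to 3 members with siRNA 2 in myoblasts, 3 to 4 and 1 to 5 with siRNA 1 and siRNA 2 in myotubes, 1 to 2 and 1 to 4 between the siRNAs in myoblasts and myotubes, and 1 to 3 for the interaction. It gave 1959 to 3200 genes with siRNA 1 in myoblasts, 2042 to 3295 with siRNA 1 in myotubes (3306 with all libraries) and 1762 to 3196 between the siRNAs in myotubes (2755). The causes were not tested. Without myotube control replicate 3, named NT_2, Egr2 and Fosl2 with siRNA 1 and Fosl2, Jun and Junb with siRNA 2 were no longer called. Each of these calls was also lost without some other library. Egr3 with either siRNA, and Fosb and Junb with siRNA 1, stayed called. In myotubes limma on TPM put rises at 33% of calls between the siRNAs, against 45.3% by edgeR. The low counts of Fos and Fosb limit the precision of their values.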
